A study of Rattus norvegicus with 18 samples.

Results

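Arc and the 3 Homer genes, 4 of 14217 named genes, were followed through 9 probe sets of 31042 tested on arrays hybridised with RNA from cultured rat hippocampal neurons. A probe set is a group of short oligonucleotides on the array that together report 1 transcript or a few. Every probe set annotated to Arc, Homer1, Homer2 or Homer3 alone was taken and kept separate, which gave 1 for Arc, 5 for Homer1, 1 for Homer2 and 2 for Homer3. A further probe set carries the names of Hax1 and Homer1 together and was not counted.

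The neurons were kept in dissociated culture and received a lentivirus on day 3 in vitro. The virus carried either MEF2-VP16-ER or the control construct MEF2deltaDBD-VP16-ER, and 4-hydroxytamoxifen (4OHT) was given on day 10 for 0, 1 or 2.5 h. All 6 groups, controls included, were therefore transduced, those at 0 h too, and each held 3 arrays that the labels call biological replicates, 18 in all. The question was which activity-regulated genes MEF2 controls. MEF2-VP16-ER joins the transcription factor MEF2 to the viral VP16 activation domain and to part of the estrogen receptor, a switch that 4OHT turns on. MEF2deltaDBD-VP16-ER lacks, by its name, the DNA-binding domain. The promoter that drives the constructs and the share of neurons transduced were not given in the sources used here, and p-values measure only the spread between these arrays. The age and strain of the rats were not given either.

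Arc is an immediate early gene of excitatory neurons whose mRNA travels to dendrites and whose protein helps to withdraw AMPA receptors from the synapse. Homer proteins are scaffolds of the postsynaptic density: an EVH1 domain binds proline-rich stretches of metabotropic glutamate receptors, Shank proteins and inositol trisphosphate receptors, and a coiled coil ties Homer molecules together. Homer1 also gives a short form, induced by synaptic activity, which lacks the coiled coil and uncouples these complexes. MEF2 proteins are activated by neuronal activity, and a distal element upstream of Arc holds binding sites for MEF2, SRF and CREB.

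In GRCr8, the RefSeq rat assembly, Arc lies on chr7:108444959-108448413 and Homer1 on chr2:26279012-26388279. Homer2 lies on chr1:144968207-145069022 and Homer3 on chr16:19166141-19176701. Arc spans 3455 bases and Homer1 spans 109268. The array annotation ties 1 probe set each of Arc, Homer1 and Homer2 to a transcript that RefSeq lists, and it does not say which Homer1 isoform a probe set detects.

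The sequence just upstream of the Homer1 start is shown because Homer1 holds the 1 member probe set that was called in any comparison below. The 250 bases, chr2:26278762-26279011 of GRCr8 on the plus strand, are credited to RefSeq and read 5′ to 3′.
Homer1 upstream: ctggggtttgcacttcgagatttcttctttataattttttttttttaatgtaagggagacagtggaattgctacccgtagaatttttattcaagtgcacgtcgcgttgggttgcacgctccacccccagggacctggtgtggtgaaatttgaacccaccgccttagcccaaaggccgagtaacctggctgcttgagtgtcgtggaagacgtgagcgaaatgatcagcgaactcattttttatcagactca
No letters are in capitals because 0 of 6 motifs searched on both strands matched in this promoter window, which runs from 250 bases before the start to 50 after it. The Homer3 window also held 0 matches. The motifs were the MEF2 element consensus, found in 3.29% of 33465 rat promoters of the same length, and the CArG box consensus of SRF, found in 1.64%. The cyclic AMP response element TGACGTCA stood in 1.83% and the shorter TGACG, which it contains, in 21.2%. CACGTG, an E-box, stood in 6.42% and GGGCGG, an SP1 site, in 33.1%. These results say only that the letters are not in these windows. Promoter sequences were used for 2 of the 4 genes.

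The cultures carried neuronal markers. All 8 neuronal markers were among the brightest 25% of probe sets, and so did all 5 markers of excitatory neurons. Of 4 markers of hippocampal principal cells all were above the median brightness and 1 was among the brightest 25%. Of 5 markers of inhibitory neurons 3 were above the median and 2 among the brightest 25%. Of 8 astrocyte markers 6 were also among the brightest 25%, led by the glutamate transporter gene Slc1a3 with a mean intensity of 10821. Of 9 measured markers of the oligodendrocyte lineage 5 were above the median brightness, and 2 of 10 for microglia, 2 of 6 for fibroblasts and 0 of 5 for endothelium. In RNA from a mixed culture, fewer cells of a type and less RNA per cell cannot be told apart. Array medians ran from 190.3 to 196.9, and the number of arrays limits the precision.

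The values below are intensities, linear and as deposited. The brightest member was Homer1 1368318_at, with a mean of 1495 over the 18 arrays, above 88.0% of probe sets. Homer1 1370656_a_at averaged 773 and Homer3 1385573_at averaged 371. Homer2 averaged 232, Homer1 1370454_at 214, Homer3 1370212_at 199.8, Arc 192 and Homer1 1368319_a_at 181, all near the middle of the array. The dimmest was Homer1 1370997_at, at 85.1. Brightness differs between probe sets for reasons of probe design as well as RNA, so these means do not rank the genes by abundance.

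**Figure D1:**
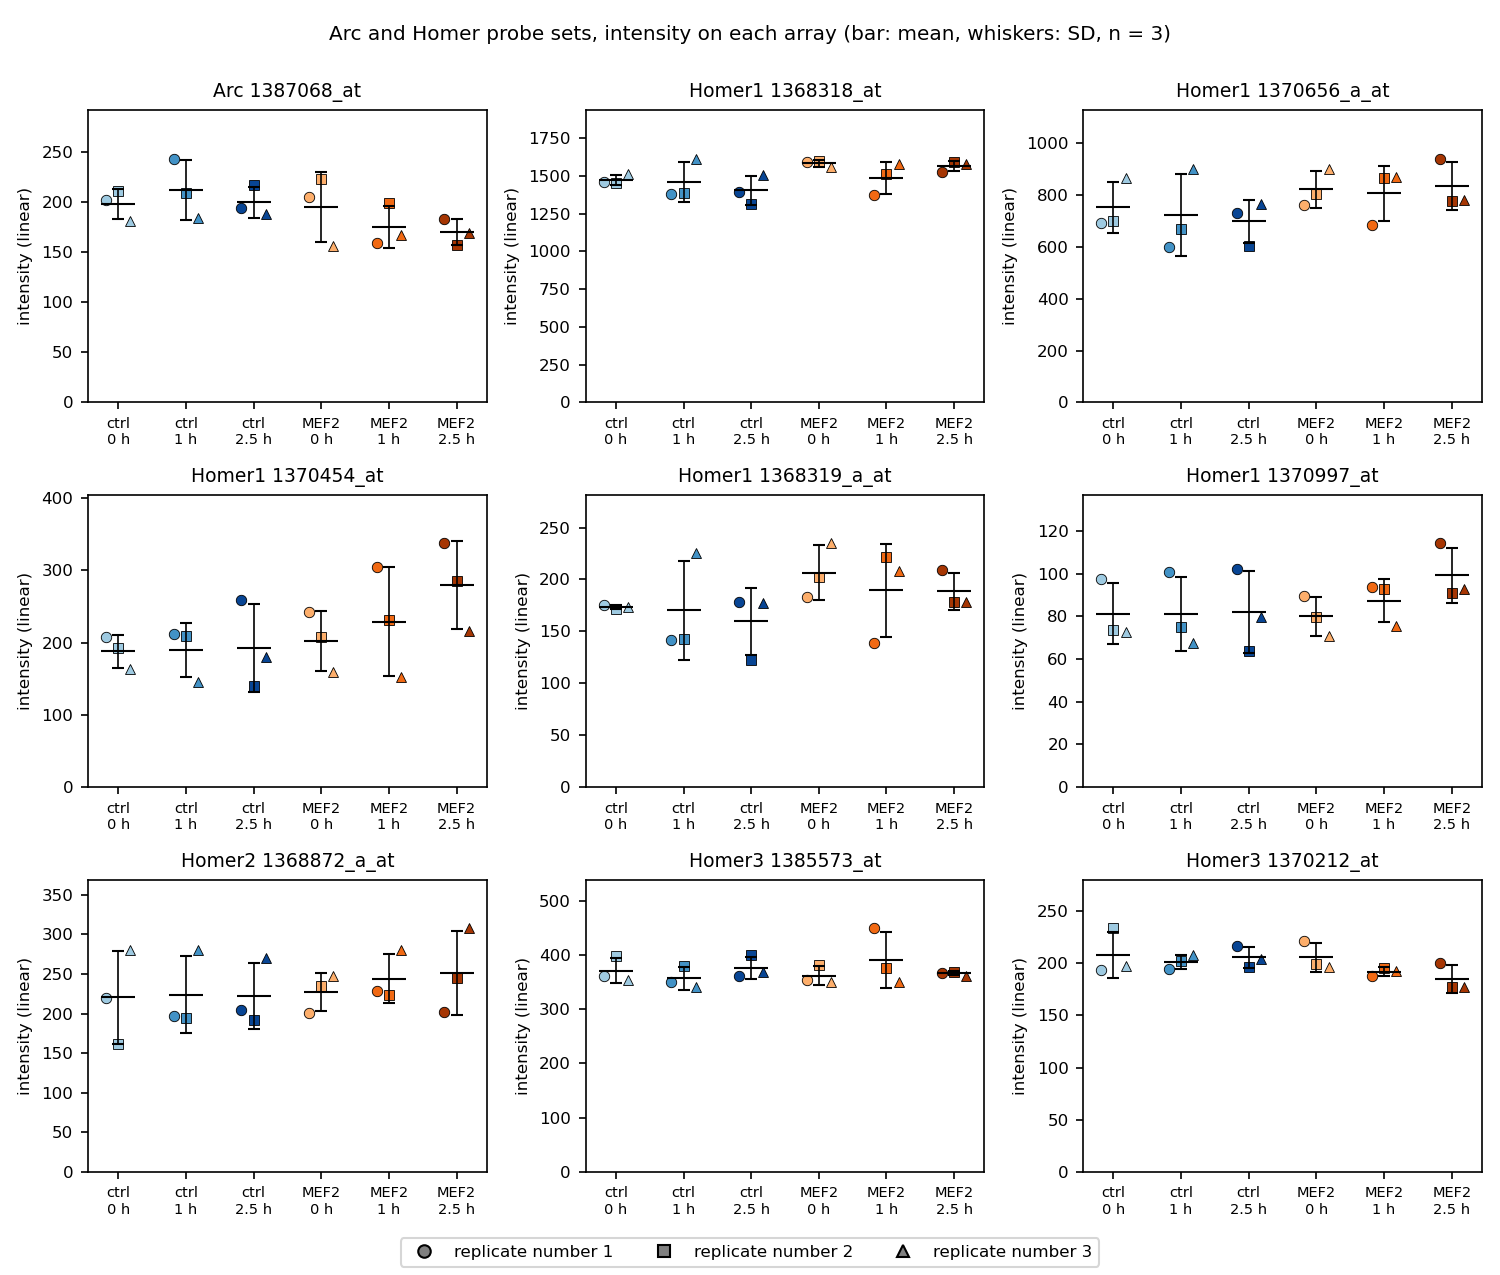
Deposited intensity (linear scale, arbitrary units) of the 9 probe sets in the 6 groups, 1 panel each, with 1 marker per array, the marker shape giving the replicate number, a bar at the mean and whiskers of SD (n = 3). Arc runs between 157 and 243 with overlapping neighbours, and Homer1 1370454_at reaches its highest array, 337, in MEF2-VP16-ER neurons at 2.5 h.

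Differences are given as log2(intensity + 16) with a standard error, from 1 limma model of all 18 arrays, and a change is called where the Benjamini-Hochberg adjusted p over all 31042 probe sets is under 0.05. Adding 16 makes the change of dim probe sets look smaller than it is. The word induction is used for the difference from 0 h with MEF2-VP16-ER less the same difference with the control construct. Over 12 comparisons and 9 probe sets, 0 of 108 tests were called, and 1 had an unadjusted p under 0.05. Arrays with the same replicate number varied together, and a second fit therefore took the replicate number as a block. With it, 1 of the 108 tests was called and 10 had an unadjusted p under 0.05. Of these, 4 of 9 probe sets were between the constructs at 2.5 h and 2 of 9 in the induction at 2.5 h. For the induction at 2.5 h 4.78% of all probe sets had an unadjusted p under 0.05 without the block and 8.44% with it, and between the constructs at 2.5 h 8.65% and 14.6%.

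The shares of all probe sets called give the background for these counts of 0. In control neurons they were 0% for each of the 3 comparisons of times, and 0%, 0.00322% and 0.00966% with the block for 1 h minus 0 h, 2.5 h minus 0 h and 2.5 h minus 1 h. In MEF2-VP16-ER neurons they were 0.0354% for 1 h minus 0 h and 0.283% for 2.5 h minus 1 h, and 0.187% and 1.29% with the block. Between the constructs they were 0% at 0 h and 0.0612% at 1 h, and 0.00322% and 0.254% with the block. For the inductions with the block they were 0.029% at 1 h and 0.937% at 2.5 h, and 0.399% for the difference of the inductions.

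Arc did not pass the test in any comparison, and its lowest mean was in MEF2-VP16-ER neurons at 2.5 h. In control neurons replicates 1, 2 and 3 read 202, 211 and 182 at 0 h, 243, 209 and 184 at 1 h, and 194, 217 and 188 at 2.5 h. In MEF2-VP16-ER neurons they read 205, 224 and 157 at 0 h, 159, 199 and 167 at 1 h, and 183, 157 and 170 at 2.5 h. The groups overlapped at 0 h and 1 h, while at 2.5 h all 3 MEF2-VP16-ER arrays lay below all 3 control arrays. At 2.5 h the constructs did not overlap, in either direction, for 12.5% of all probe sets.

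Ordered by mean, the Arc groups ran from 169.9 ± 13.1 (SD, n = 3) in MEF2-VP16-ER neurons at 2.5 h through 175 ± 21.1 at 1 h and 195 ± 34.6 at 0 h. Control neurons followed with 198 ± 15.0 at 0 h, 199.9 ± 15.6 at 2.5 h and 212 ± 29.9 at 1 h. No neighbours in this order differed by more than the larger of their SDs. Over all 18 arrays the highest value was 1.56 times the lowest.

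The Arc induction at 2.5 h was -0.18 ± 0.17 log2 units (limma, 95% interval -0.55 to 0.18, 3 arrays in each of 4 groups, adjusted p = 1.00), when 0.177% of all probe sets were called. At 1 h it was -0.22 ± 0.17 (95% interval -0.59 to 0.14), when 0.00322% were called. The direct difference between the constructs at 2.5 h was -0.22 ± 0.12 (95% interval -0.47 to 0.04, limma adjusted p = 0.700, and 0.312 with the replicate block), when 1.28% were called. At 1 h it was -0.25 ± 0.12, and at 0 h, before 4OHT, it was -0.03 ± 0.12. In control neurons Arc differed from 0 h by 0.09 ± 0.12 at 1 h and 0.01 ± 0.12 at 2.5 h. These intervals are from the fit without the block. In the limma fit with the block Arc had an unadjusted p under 0.05 between the constructs at 1 h and at 2.5 h. Its 95% intervals for these 2 differences then lay below 0, but neither was called. At 2.5 h 14.6% of all probe sets had such a p with the block. The intervals give the changes compatible with these arrays under the fit used.

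The 5 Homer1 probe sets all had higher means in MEF2-VP16-ER than in control neurons at 2.5 h, by 0.16 to 0.52 log2 units. Of them 1, 1370454_at, was called in the fit with the replicate block. At 0 h, before 4OHT, the differences were 0.23 for 1368319_a_at, 0.13 for 1370656_a_at and 0.10 for 1368318_at. For 1370454_at and 1370997_at they were 0.09 and -0.01. Replicate 2 of the control at 2.5 h was the lowest of the 18 arrays for 4 of the 5 probe sets. Without that array and without the block, the differences at 2.5 h were 0.33 for 1370454_at, 0.15 for 1370656_a_at and 0.11 for 1368318_at. They were 0.11 for 1370997_at and 0.07 for 1368319_a_at. For 1370454_at, replicates 1, 2 and 3 in control neurons read 208, 192 and 163 at 0 h. They read 213, 209 and 146 at 1 h, and 259, 139 and 180 at 2.5 h. In MEF2-VP16-ER neurons they read 242, 208 and 159 at 0 h, 304, 231 and 152 at 1 h, and 337, 286 and 217 at 2.5 h. The ranges overlapped at every time, because replicate 1 of the control at 2.5 h was above replicate 3 of MEF2-VP16-ER, yet at 1 h and at 2.5 h the MEF2-VP16-ER array was the higher one in each of the 3 replicate numbers.

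The Homer1 1370454_at means in control neurons were 188 ± 22.9 (SD, n = 3) at 0 h, 189 ± 37.5 at 1 h and 193 ± 61.0 at 2.5 h. In MEF2-VP16-ER neurons they were 203 ± 41.5, 229 ± 75.9 and 279.96 ± 60.5, and no neighbours in the order of means differed by more than the larger SD. Its difference between the constructs at 2.5 h was 0.52 ± 0.25 log2 units, a fold of 1.44 (95% interval -0.0041 to 1.05 log2 units, limma adjusted p = 0.584). With the replicate block it was 0.52 ± 0.13 (95% interval 0.24 to 0.81, limma adjusted p = 0.0428), so the probe set was higher in MEF2-VP16-ER neurons in that fit, in which 3.49% of all probe sets were called.

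That call was close to the threshold. With the block it held in 7 of 18 fits that left out a single array, where the difference ran from 0.29 to 0.66. In MEF2-VP16-ER neurons at 2.5 h the limma adjusted p was 0.0902, 0.157 and 0.101 without replicates 1, 2 and 3, and at 0 h it was 0.0598, 0.0555 and 0.0558. Without replicate 2 of MEF2-VP16-ER at 1 h it was 0.0540. In control neurons it was 0.178 without replicate 2 at 2.5 h, where the difference was 0.29, and 0.0539 without replicate 3 at 1 h. At 0 h it was 0.0588 without control replicate 2 and 0.0534 without replicate 3. Leaving out a whole replicate number gave differences of 0.60, 0.30 and 0.66 without numbers 1, 2 and 3, with adjusted p of 0.0973, 0.393 and 0.0850.

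The induction of Homer1 1370454_at at 2.5 h was 0.43 ± 0.35 log2 units (limma, 95% interval -0.31 to 1.18, adjusted p = 1.00, and 0.537 with the block). Its mean differed from 0 h by 0.00 in control neurons at 2.5 h. In MEF2-VP16-ER neurons the 2.5 h minus 0 h difference was 0.43 ± 0.25 and was not called (limma adjusted p = 0.989, and 0.145 with the block), when 0.789% of all probe sets were called, 2.33% with the block. At 1 h the induction was 0.13 ± 0.35. In the limma fit with the block, 1370454_at and 1370997_at were the 2 of 9 with an unadjusted p under 0.05 for the induction at 2.5 h. Over all probe sets 8.44% had such a p. The 95% intervals of these 2 inductions then lay above 0, but neither was called.

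Homer1 1368318_at, the brightest, varied by 1.23-fold over the 18 arrays. In control neurons replicates 1, 2 and 3 read 1456, 1455 and 1510.0 at 0 h, 1377, 1389 and 1613 at 1 h, and 1393, 1314 and 1503 at 2.5 h. The MEF2-VP16-ER arrays read 1593, 1598 and 1557 at 0 h, 1371, 1513 and 1579 at 1 h, and 1526, 1593 and 1577 at 2.5 h. The MEF2-VP16-ER arrays were all above the control arrays at 2.5 h and already at 0 h, and overlapped them at 1 h. The constructs did not overlap, in either direction, for 12.5% of all probe sets at 2.5 h and for 17.4% at 0 h. The difference of Homer1 1368318_at between the constructs was 0.10 ± 0.07 at 0 h and 0.16 ± 0.07 at 2.5 h (limma adjusted p = 0.697 and 0.512). After quantile normalization these differences were 0.04 and 0.09. The value at 2.5 h was the single member test with an unadjusted p under 0.05 without the block, 0.0345, a share to set against 8.65% of all probe sets. The induction at 2.5 h was 0.06 ± 0.10 (95% interval -0.15 to 0.26).

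Homer1 1370656_a_at had means of 753 ± 97.2 (SD, n = 3), 724 ± 158 and 699.8 ± 83.4 in control neurons at 0, 1 and 2.5 h, and of 822 ± 72.3, 807 ± 106 and 834 ± 92.3 in MEF2-VP16-ER neurons. At 2.5 h its MEF2-VP16-ER arrays, at 941, 780 and 783, lay above the control arrays, at 729, 606 and 764, for a difference of 0.25 ± 0.15 (limma adjusted p = 0.723). Homer1 1368319_a_at ran from 123 to 235, and its arrays were higher with MEF2-VP16-ER at 0 h (183, 202 and 235) than in the control (175, 171 and 174). Its difference between the constructs was 0.23 ± 0.18 at 0 h and 0.23 ± 0.18 at 2.5 h, neither called. Separations like those of these 2 probe sets, in either direction, were seen for 12.5% of all probe sets at 2.5 h and 17.4% at 0 h.

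Homer1 1370997_at, the dimmest, read 97.7, 73.6 and 72.7 in control neurons at 0 h and 102, 63.96 and 79.5 at 2.5 h. In MEF2-VP16-ER neurons it read 89.5, 79.7 and 70.8 at 0 h and 114, 90.9 and 92.8 at 2.5 h, with no overlap between these times, as for 11.3% of all probe sets. Its 2.5 h minus 0 h difference in MEF2-VP16-ER neurons was 0.26 ± 0.15, which was not called (limma adjusted p = 1.00, and 0.159 with the block). Its induction at 2.5 h was 0.26 ± 0.22 (adjusted p = 0.558 with the block).

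**Figure D2:**
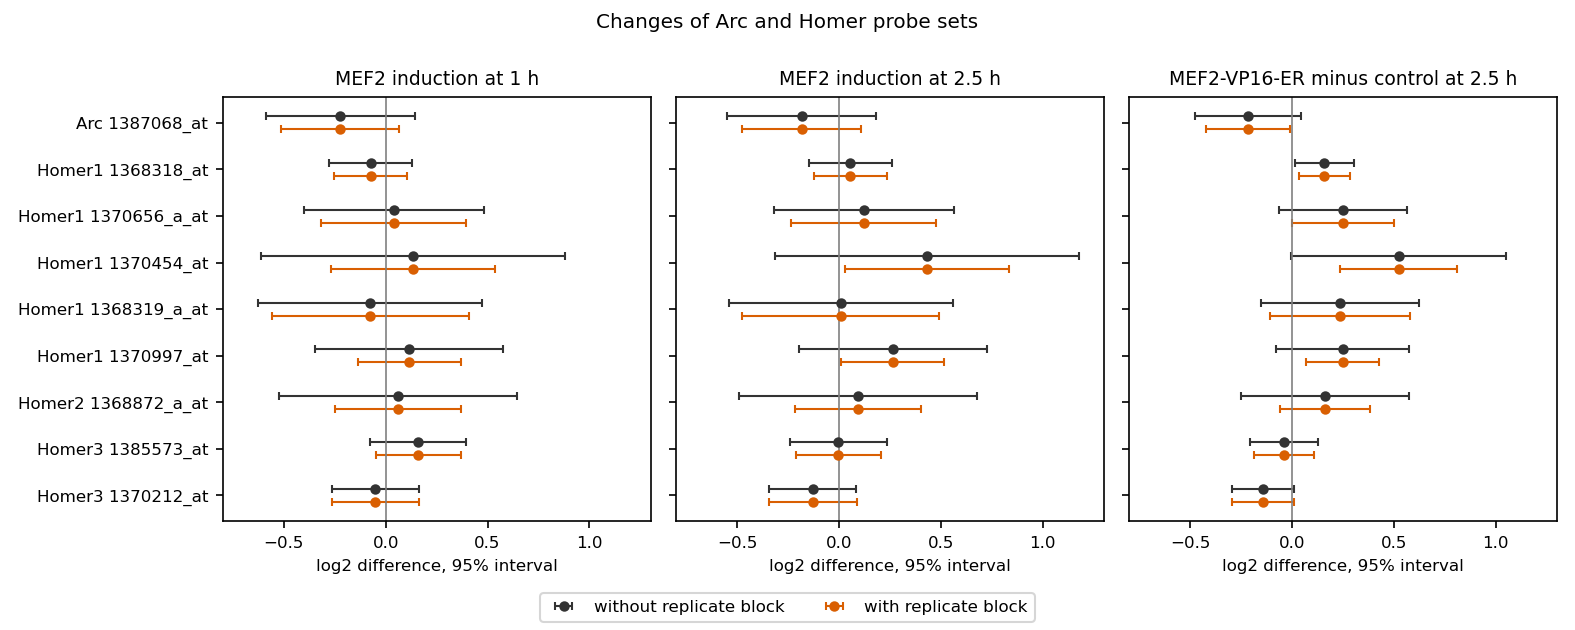
Log2 difference (x axis, log2 units) with its 95% interval for each of the 9 probe sets, without and with the replicate block, for the inductions at 1 h and 2.5 h and for MEF2-VP16-ER minus control at 2.5 h. For Homer1 1370454_at in the last comparison the interval with the block, 0.24 to 0.81, lies above 0, while the induction of Arc at 2.5 h spans 0.

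Homer2, like several other member probe sets, differed more between replicate numbers than between groups. In control neurons replicates 1, 2 and 3 read 220, 161 and 279.8 at 0 h, 197, 194 and 279.8 at 1 h, and 205, 192 and 270.0 at 2.5 h. The MEF2-VP16-ER arrays read 201, 235 and 247 at 0 h, 228, 224 and 280.2 at 1 h, and 202, 245 and 308 at 2.5 h. Replicate 3 was the highest in 6 of 6 groups, and all pairs of groups overlapped. The Homer2 induction at 2.5 h was 0.09 ± 0.27 (limma, 95% interval -0.49 to 0.68), and the difference between the constructs at 2.5 h was 0.16 ± 0.19 (adjusted p = 0.911).

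Homer3, which like the long Homer1 forms carries an EVH1 domain and a coiled coil, did not pass the test with either probe set. Homer3 1385573_at had means of 371 ± 23.5 (SD, n = 3), 357 ± 20.8 and 377 ± 20.2 in control neurons at 0, 1 and 2.5 h. In MEF2-VP16-ER neurons they were 361 ± 17.5, 392 ± 51.7 and 366 ± 3.56, and the one high array was replicate 1 at 1 h, at 449. Its induction was 0.16 ± 0.11 at 1 h and 0.00 ± 0.11 at 2.5 h. Homer3 1370212_at was lowest in MEF2-VP16-ER neurons at 2.5 h, at 200.3, 178 and 177 against 217, 197 and 204 in the control, groups that overlapped. Its difference between the constructs at 2.5 h was -0.14 ± 0.07 (limma adjusted p = 0.612), and its induction was -0.13 ± 0.10 (95% interval -0.34 to 0.08).

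Over the 9 probe sets the median induction at 2.5 h was 0.06 log2 units with 6 of 9 positive, beside a median of 0.00 over all 31042. At 1 h it was 0.04 with 5 of 9 positive, beside -0.02. Between the constructs at 2.5 h the median was 0.16 with 6 of 9 positive, beside 0.01, and 3 of 9 did not overlap, when 12.5% of all probe sets did not. At 0 h 2 of 9 did not overlap, when 17.4% did not. The induction at 2.5 h minus that at 1 h lay between -0.16 and 0.30, 0 of 9 called, when 0.0419% of all were. The inductions and the direct differences share arrays, so they are not separate evidence.

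At 2.5 h some cell type marker genes also differed between the constructs. The summed intensity of the 5 excitatory markers was 8583 to 10717 in the MEF2-VP16-ER arrays and 11227 to 13365 in the control arrays, which did not overlap. Among the 5 markers the transcription factor gene Neurod2 was lower at 2.5 h, at -0.69 ± 0.11 (limma adjusted p = 0.00283). Neurod6, the brightest of the 5, was at -0.49 ± 0.12 (adjusted p = 0.0778, and 0.00187 with the block). Camk2a and the vesicular glutamate transporter genes Slc17a7 and Slc17a6 were at 0.04, 0.05 and 0.03. The fibroblast marker Dcn, which encodes decorin, was at -0.58 ± 0.32 (adjusted p = 0.684, and 0.00106 with the block). No other fibroblast marker was called, with Col1a1 and Col3a1 at 0.05, Lum at 0.01, Col1a2 at -0.10 and Pdgfrb at -0.15. The 6 fibroblast markers, of which Dcn was the brightest, summed to 841 to 1167 with MEF2-VP16-ER and 1099 to 1428 in the control, which overlapped. At 0 h these sums were 851 to 1212 and 1049 to 1467. At 2.5 h the 8 neuronal markers summed to 44220 to 46066 with MEF2-VP16-ER and 41673 to 43117 in the control. The part of these differences in the Arc and Homer1 values was not tested. The 3′ to 5′ ratio of Gapdh was 1.08 to 1.14 against 1.08 to 1.11, which overlapped.

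The Homer1 probe sets fell into 2 sets by their course over the 18 arrays. Pearson's r of log2 values was 0.80 between 1368318_at and 1370656_a_at, 0.82 between 1368318_at and 1368319_a_at, and 0.90 between 1370656_a_at and 1368319_a_at. The pair 1370454_at and 1370997_at had r = 0.86, while r between the 2 sets was -0.06 to 0.03. With the mean of each replicate number removed, the values within the sets were 0.73 to 0.88, and those between the sets were 0.30 to 0.50. These correlations describe 18 arrays that share groups and replicate numbers.

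**Figure D3:**
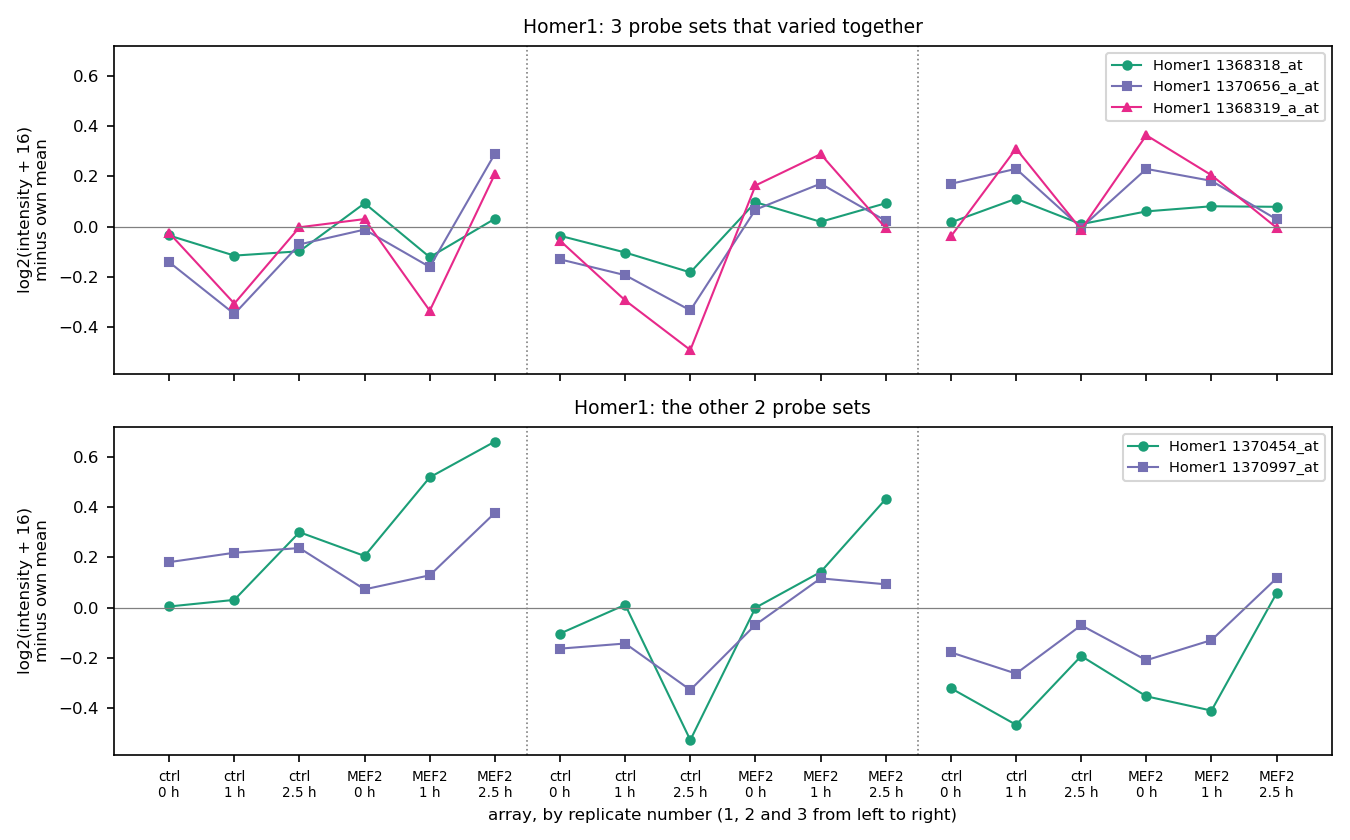
Log2(intensity + 16) minus each probe set's own mean (y axis, log2 units) for the 5 Homer1 probe sets over the 18 arrays, ordered by replicate number. The upper panel holds the 3 that varied together (r = 0.80 to 0.90) and the lower panel the pair with r = 0.86, which is higher in replicate 1.

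Whether the Homer1 or Homer3 probe sets changed unequally was tested on the difference between each and the brightest of its gene, together with 6609 such differences in 4525 genes. Of 60 tests on Homer1 and Homer3 in 12 comparisons, 0 were called, with or without the block, and 0 had an unadjusted p under 0.05 without it and 3 with it. Homer1 1370454_at minus 1368318_at differed by 0.45 ± 0.27 between 2.5 h and 0 h in MEF2-VP16-ER neurons (limma adjusted p = 0.998, and 0.225 with the block), when 0.484% of all such differences were called, 1.03% with the block. Between the constructs at 2.5 h it differed by 0.36 ± 0.27 (adjusted p = 0.313 with the block), when 0.893% were called, 1.36% with the block. In the induction at 2.5 h it differed by 0.38 ± 0.38, when 0.121% were called, 0.348% with the block.

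After the values were seen, the effect of replicate number was tested in the block fit, in which 29.6% of all probe sets passed. Homer2 had means of 209, 209 and 277 in replicates 1, 2 and 3 (limma F test, adjusted p = 0.000732), and replicate number took 67.3% of its variance against 10.1% for the groups. Homer1 1370454_at had means of 261, 211 and 170 (adjusted p = 0.000973) and Homer1 1370997_at of 99.6, 79.3 and 76.5 (adjusted p = 0.000980). Replicate number took 48.6% and 56.8% of their variance, against 32.5% and 24.5% for the groups. For both, replicate 1 was the highest array in 6 of 6 groups, in the opposite sense to Homer2. Arc, at 198, 203 and 174, did not pass (adjusted p = 0.0790), nor did the other 5.

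The genes whose course over the 18 arrays was most like that of Arc were Dusp5, Syn1, Raver2, Dcn and Pex14, with Pearson's r of 0.80, 0.79, 0.78, 0.77 and 0.75. For Homer1 1368318_at they were Rap2c (0.90), Apc (0.89), Mtdh (0.88), Slc8a1 (0.87) and Ppp2r2b (0.86). For Homer2 they were Atrx (0.96), Nup93 (0.93), Pgm1 (0.93), Tmem64 (0.92) and Mapk1ip1l (0.92). For Homer3 1385573_at they were Dpp9 (0.83), Thra (0.83), Btbd9 (0.78), Lrp1 (0.76) and Eps15l1 (0.75). Each ranking ran over 12109 probe sets with a mean above the median. Whether its top values exceed what so many candidates give by chance was not tested. With replicate means removed, 1 of the 5 stayed in the top 5 for Arc (Syn1), 0 for Homer1 1368318_at, 1 for Homer2 (Atrx) and 2 for Homer3 (Dpp9 and Thra). For Homer1 1370454_at, added after its values were seen, Zdbf2 led (0.96), and it was the 1 of 5 that stayed (0.92).

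Of 11 measured Homer binding partners, 0 had a called induction at 2.5 h by limma and 0 an unadjusted p under 0.05, with a median of 0.02 log2 units. Over all probe sets 0.177% were called and 4.78% had an unadjusted p under 0.05. The metabotropic receptor gene Grm5 was at 0.25 ± 0.15, the postsynaptic scaffold genes Shank1, Shank2 and Shank3 were at -0.04, -0.02 and -0.11, and the inositol trisphosphate receptor gene Itpr1 was at 0.01. Of 16 genes for Arc partners and AMPA receptor trafficking 0 were called and 1 had an unadjusted p under 0.05, the endophilin gene Sh3gl1 at 0.25 ± 0.11. Their median was 0.02, with the AMPA receptor genes Gria1 and Gria2 at 0.07 and 0.14.

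Of 13 measured regulators of Arc transcription 0 had a called induction at 2.5 h and 4 an unadjusted p under 0.05. Over all probe sets these shares were 0.177% and 4.78%. With the replicate block Srf, which encodes the serum response factor, had an induction of -0.47 ± 0.08 log2 units (limma adjusted p = 0.00810, and 0.428 without the block). Within MEF2-VP16-ER neurons its 2.5 h minus 0 h difference was -0.30 (adjusted p = 0.00814 with the block). Between the constructs at 2.5 h, the histone deacetylase gene Hdac5 was higher by 0.96 ± 0.11 (adjusted p = 0.000187) and Mef2a by 0.54 ± 0.11 (adjusted p = 0.0241). These values are not changes from 0 h and include any difference already there before 4OHT. Within MEF2-VP16-ER neurons the 2.5 h minus 0 h difference of Hdac5 was 0.55 ± 0.11 (limma adjusted p = 0.0226). Whether the Mef2a probe set also detects the introduced constructs was not tested.

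Other activity genes, known to be induced together with Arc, were listed with results on some of them known. Of 19 measured, 4 had a called positive induction at 2.5 h and 0 a called negative one, when 0.139% and 0.0387% of all probe sets did. The median of the 19 genes, with 1 probe set each, was 0.23 log2 units. Over the 9 member probe sets, of which 5 are from Homer1, it was 0.06. Rgs2, a regulator of G protein signalling, was at 2.11 ± 0.25 (limma adjusted p = 0.00149) and Inhba, the activin A subunit, at 1.45 ± 0.25 (adjusted p = 0.0264). The orphan nuclear receptor genes Nr4a1 and Nr4a3 were at 1.11 ± 0.19 and 0.63 ± 0.10 (adjusted p = 0.0299 and 0.0148). With the replicate block 6 rose and 1 fell, when 0.564% and 0.374% of all probe sets did. The added ones were Bdnf, which encodes a neurotrophin, at 1.63 ± 0.50 without the block (adjusted p = 0.509, and 0.000131 with it), Nr4a2 at 1.00 (adjusted p = 0.000780 with the block) and Egr1 at -0.80 (adjusted p = 0.0389 with the block). For the induction at 1 h 0 of the 19 were called by limma, when 0.00322% of all probe sets were. Of the 19, 2 had an unadjusted p under 0.05, with a median of 0.27 against -0.02 over all probe sets. Directly between the constructs at 1 h, Rgs2 was higher by 1.39 ± 0.18 (limma adjusted p = 0.00412). Nr4a1 was higher by 0.96 ± 0.14 (adjusted p = 0.0122), when 0.0612% of all probe sets were called. Both were also called in MEF2-VP16-ER neurons for 1 h minus 0 h, at 1.43 and 1.01, when 0.0354% were.

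**Figure D4:**
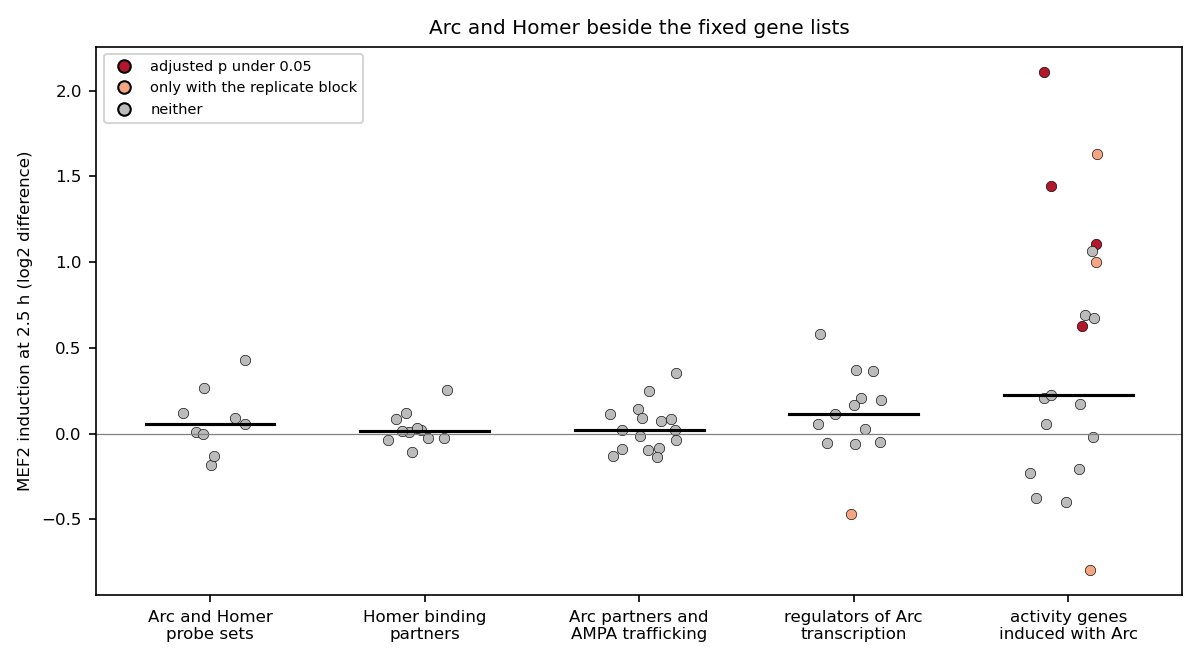
Induction at 2.5 h (log2 units) of the 9 member probe sets and of the genes of 4 lists, 1 dot per probe set or gene, coloured by whether it was called without the block, with it only, or not, and with a bar at the median. The members lie between -0.18 and 0.43 with none called, and Rgs2 at 2.11 is the highest of the activity genes.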

How the data were processed

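RNA was measured on 18 arrays (6 groups of 3), extracted with RNeasy Micro and labelled with biotin by standard Affymetrix procedures, per the labels. The deposited table holds intensity values on a linear scale, from 18.97 to 29640. Sources used here do not name the authors' normalization. Values were used as deposited, after 57 control probe sets were left out of 31099. Of the other 31042, 20826 carried 1 gene symbol, 436 several and 9780 none.

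The limma model (lmFit and eBayes on log2(intensity + 16)) had a mean for each group and 12 residual degrees of freedom, with Benjamini-Hochberg adjustment over all probe sets within each of 12 contrasts. The labels gave group and replicate number. Residuals of arrays with the same number correlated above 0.1 in 44 of 45 pairs (range 0.068 to 0.791), which pairs the arrays in 10 contrasts. The MEF2 induction at 1 h and the 1 h minus 0 h contrast in MEF2-VP16-ER neurons were not treated as paired. The fit with the replicate block is given where it changes a call or count.

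All member probe sets are named. List genes are named by adjusted p, with 1 probe set per gene, the brightest. Likeness is Pearson's r over 18 arrays. The members and lists were chosen with earlier results of these data known. All 4 member gene IDs matched the RefSeq table. The steps were tested on simulated data. Alternatives were the replicate block, leaving out arrays or replicate numbers, a pseudocount of 1 or 64, a filter at the median level, median centring or quantile normalization, a robust variance trend in eBayes, and a fit of the contrast's own groups. The F test for replicate number and the block combined with each alternative were added after the values were seen. Fits used limma 3.58.1 in R 4.3.3, and figures used matplotlib 3.10.9 in Python 3.11.15.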

Additional observations from a re-analysis of the deposited data

How the results depend on the processing

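The 9 probe sets were refitted under 29 settings: 18 that left out an array, 3 that left out a replicate number and 8 others. Of the 12 counts of called member probe sets, 1 moved. For MEF2-VP16-ER minus control at 2.5 h it went from 0 to 1 with the replicate block, which pairs arrays by number, through Homer1 1370454_at. The block changed no other member call. It raised the count over all probe sets from 55 to 291 for the induction at 2.5 h and from 397 to 1083 between the constructs at 2.5 h. With the block, Homer1 1370454_at stayed called in 5 of 7 other settings. The call was lost with a pseudocount of 64 (0.43 log2 units, limma adjusted p = 0.0596) and with only the groups of the contrast in the fit (adjusted p = 0.143). Without the block its difference ran from 0.30 without replicate 2 to 0.74 without replicate 1 of the control at 2.5 h. The Arc induction at 2.5 h ran from -0.32 to -0.02 and stayed uncalled. Of 3096 member values, nearly all of them uncalled, 199 changed sign, with a main size of at most 0.15. Quantile normalization or median centring shifted the median of all probe sets by at most 0.021, but quantile normalization lowered Homer1 1368318_at between the constructs from 0.16 to 0.09 at 2.5 h and from 0.10 to 0.04 at 0 h. The level filter kept 6 of the 9. The number of arrays, 3 a group, limits the precision: the median SE of an induction at 2.5 h was 0.12 log2 units.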
